A study of Mus musculus with 48 samples.

Results

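The comparison asks which liver transcripts change between the early and the late subjective day, the part of the circadian cycle in which nocturnal mice rest. The early subjective day was taken as circadian hours 1 to 4 (CT25 to CT28 and CT49 to CT52) and the late subjective day as circadian hours 7 to 10 (CT31 to CT34 and CT55 to CT58), where hour 0 is subjective dawn. These windows hold 8 pools a side, 16 of the 48 hourly pools in the series. All were livers of wildtype male C57BL/6J mice, 6 weeks old, which had lived for 1 week under 12 h of light and 12 h of darkness and then stayed in constant darkness, so no pool received a light signal or any other treatment. Each pool joined 3 to 5 mice and was read on 1 Affymetrix Mouse Genome 430 2.0 array. No hour was sampled more than once within a cycle, neighbouring pools follow one slow time course, and the p-values therefore measure the spread among these hourly pools.

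The values are deposited intensities on a linear scale, which the study extracted with GCRMA, and changes are given as late minus early on the log2 scale with the SE after the ± sign. A gene was read through 1 probe set, that of the highest mean over the 48 pools, and was called when its limma p, adjusted by Benjamini-Hochberg over all 45101 probe sets, lay under 0.05 with the cycle as covariate. For 1161 probe sets at least 1 value exceeded 65535, the ceiling of a 16-bit scanner, so the sizes of folds rest on the deposited scale. In pooled tissue, fewer cells of a type and less RNA per cell cannot be told apart.

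In mammals the circadian clock is a loop of transcription. BMAL1 (encoded by Arntl) with CLOCK or NPAS2 switches on the Per and Cry genes, the REV-ERB receptors Nr1d1 and Nr1d2, and the PAR bZIP factors Dbp, Tef and Hlf. PER and CRY proteins repress their own activators, REV-ERBs repress Arntl against the ROR receptors, and NFIL3 opposes the PAR bZIP factors on the same DNA element. In liver this loop runs beside feeding signals, and together they time lipid, glucose and bile acid metabolism and the load on the secretory pathway.

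One late pool stood apart from the others. Every pool of hours 1 to 10 was placed between the early and the late mean of the first cycle, over the 139 probe sets called in the first cycle alone, with 0% for early and 100% for late. The late pools of the second cycle lay at medians of 93.9%, 99.5% and 97.3% at CT56, CT57 and CT58, but at 29.1% at CT55. The midday pools, which belong to neither group, lay at 21.9% at CT29 and 53.9% at CT30 in the first cycle and at 59.2% at CT53 and 52.3% at CT54 in the second. In the order of their labels the second-cycle pools thus went up, down and up again between CT52 and CT56. The first-cycle pools went up at each step from CT28 to CT31. However, the early and late pools of the first cycle chose the probe sets and set 0% and 100%. Their places near the ends were thus fixed beforehand, and only CT29 and CT30 were free. Among the 1037 genes called below, the pool labelled CT55 was the late pool nearest to the early level in 567, followed by CT31 in 148. The reason was not tested, the labels were kept, and values without this pool are given beside the results. This pool was singled out for lying near the early level, so leaving it out favours larger changes, smaller SEs and separate groups. The values without it are a description and add no support.

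**Figure D1:**
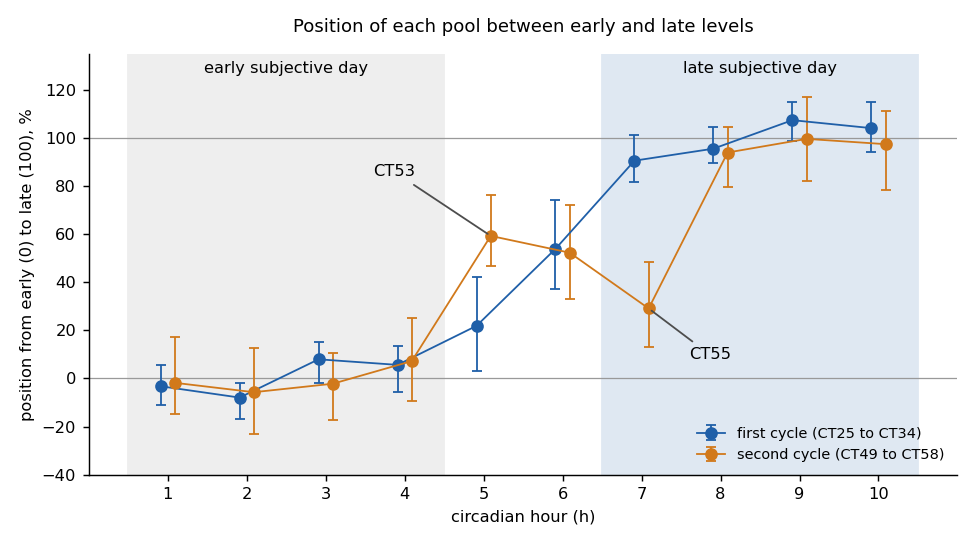
Position of each pool of circadian hours 1 to 10 between the early (0%) and late (100%) means of the first cycle, as the median and quartiles over 139 probe sets called in that cycle, with hour on the x axis. The second-cycle pools of hours 8 to 10 lie near 100% and the pool labelled CT55 lies at 29.1%.

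The labelled tissue was checked first. The 6 measured hepatocyte markers, among them Alb and Ttr, summed to between 3582190 and 3834040 in the early pools and between 3593690 and 3767700 in the late pools, and none was called. None of the measured members of 10 marker lists for liver and other cell types was called. Changes lay below 0 in 8 of 8 stellate and pericyte (median -0.18), 7 of 8 Kupffer (-0.22) and 6 of 8 endothelial markers (-0.07). They lay above 0 in 6 of 7 lymphocyte markers (median 0.02). Pancreatic acinar transcripts were an exception in level: the 5 measured markers summed to 294340 in the pool of CT25 and had a median of 8259.8 over the early pools, against 5053 to 7972 in the late pools. In the late group CT55 had the highest sum of the endothelial, Kupffer, stellate, neutrophil and acinar markers. The part of these cells in the changes below was not tested, and leaving out CT25 left 706 probe sets called higher and 888 lower, against 811 and 925 with it.

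Of 45101 probe sets, 811 were called higher late in the subjective day (1.80%) and 925 lower (2.05%). Read as genes, 464 of 18194 were called higher (2.55%) and 573 lower (3.15%), and the median change over all genes was 0.01. Of the 18194 genes, 11229 had a mean intensity of at least 100 in the early or the late pools. Most pathway lists below hold few dimmer genes, and the shares called among brighter genes were not computed. The shares of all genes given beside the lists thus cover many more dim genes than the lists do. The typical called change was modest, with a median of 1.39-fold up and 1.40-fold down. The change exceeded 2-fold in 70 higher and 72 lower genes, and 4-fold in 15 and 11. The 8 late values all lay above the 8 early values in 85 genes (0.467%) and all below in 129 (0.709%). Without the pool labelled CT55 the calls were 555 higher and 638 lower, 977 of them shared with the full set, and the groups were separate in 223 and 274 genes.

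The clock activators went down together. All 4 measured members of the list were called lower, against 3.15% of all genes, with a median change of -1.57. Arntl, whose protein BMAL1 is the obligate activator of the loop, had early intensities from 1979 to 5265 with a median of 4312, and late intensities from 126 to 1128 with a median of 139. The groups did not overlap, and the highest late value was that of CT55, the other 7 late pools lying between 126 and 186. The change was -4.35 ± 0.38 (limma, adjusted p = 0.000121), a 20.4-fold fall, and -4.70 ± 0.19 without CT55. Npas2, the partner of BMAL1 that can stand in for CLOCK, fell from a median of 339 (range 102 to 745) to 70.6 (range 67.3 to 72.9), a change of -1.99 ± 0.35 (adjusted p = 0.00517). All of its late values, CT55 included, were under 100, below which a probe set was counted as dim, and all of its early values were above. Clock fell by 1.16 ± 0.19 on the log2 scale (adjusted p = 0.00284), from a median of 5935 to 2554, with overlap only through CT55 at 5584. Rora, an activating receptor on the Arntl promoter, fell by 0.25 ± 0.04 (adjusted p = 0.00364), but its 8 other probe sets were not called and ran from -0.31 to 0.23.

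The repressors moved the other way. Of 13 measured members of the list 7 were called higher and 1 lower, against 2.55% and 3.15% of all genes. Ciart, a repressor of CLOCK and BMAL1, had early intensities from 73.6 to 106 and late intensities from 96.5 to 1486 with a median of 743. Only the CT55 value overlapped with the early pools, and the others lay between 212 and 1486. The early values lay near or under the dim limit of 100. The change was 2.57 ± 0.50 (adjusted p = 0.00962) and 2.94 ± 0.38 without CT55. Bhlhe40, which represses at E-boxes, rose from a median of 3366 (range 2618 to 5092) to 16532 (range 5751 to 22356), a change of 2.14 ± 0.24 (adjusted p = 0.000323) with no overlap.

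The 3 period genes were called higher. Per2 had a median of 197 early (range 157 to 381) and 832 late (range 178 to 1549.5), a change of 1.83 ± 0.38 (adjusted p = 0.0141) that was 2.13 ± 0.26 without CT55, the lowest late pool. Per1 changed by 1.15 ± 0.24 (adjusted p = 0.013). Per3 changed by 1.16 ± 0.30 (adjusted p = 0.0451), with its late values spread from 263 at CT34 to 1814 at CT33, neighbouring hours of 1 cycle. At the first late hour of the first cycle, CT31, Per1 had already reached 1020.9 and Per3 905.6, and Per2 485.5. The size for Per3 depended on the probe set, since 3 others with early means under 100 were called higher by 3.08, 2.17 and 2.14 and 2 dim ones were not called. The cryptochromes divided. Cry1 fell from a median of 4428 (range 1526 to 6778) to 1631 (range 1227 to 2309), a change of -1.23 ± 0.27 (adjusted p = 0.0203), while Cry2 rose by 0.67 ± 0.13 (adjusted p = 0.012).

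Of the REV-ERB pair, Nr1d2 rose from a median of 16527 (range 3444 to 33484) to 60839 (range 43472 to 66153), without overlap, a change of 1.98 ± 0.37 (adjusted p = 0.00757). Nr1d1 was not called (1.20 ± 0.57, adjusted p = 0.408). Its 4 midday pools, between 1875 and 2353, were all above the early pools, which reached 1297, and its late pools ran from 431 at CT58 to 3360.5 at CT31. Its values thus lay highest between the windows and at the start of the late one. Csnk1d and Csnk1e, kinases that phosphorylate PER proteins, and Bhlhe41 and Fbxl21 were not called, with changes between -0.02 and 0.07.

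Of the output factors, the 3 PAR bZIP genes rose and their antagonist Nfil3 fell. Dbp had the largest change of all called genes on the log2 scale. Its early intensities ran from 349 at CT25 to 8755 at CT28 with a median of 1105, and its late intensities from 16032 at CT55 to 126895 at CT33 with a median of 97675. The groups did not overlap, and the 7 late pools other than CT55 lay between 88918 and 126895. The change was 5.93 ± 0.67 (adjusted p = 0.000344), 60.8-fold, and 6.23 ± 0.65 without CT55. Tef rose by 2.28 ± 0.30 (adjusted p = 0.000804) and Hlf by 0.80 ± 0.15 (adjusted p = 0.00731). Nfil3 fell from a median of 5446 (range 3035 to 8427) to 1167 (range 786 to 2264), without overlap, a change of -2.12 ± 0.22 (adjusted p = 0.000261).

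**Figure D2:**
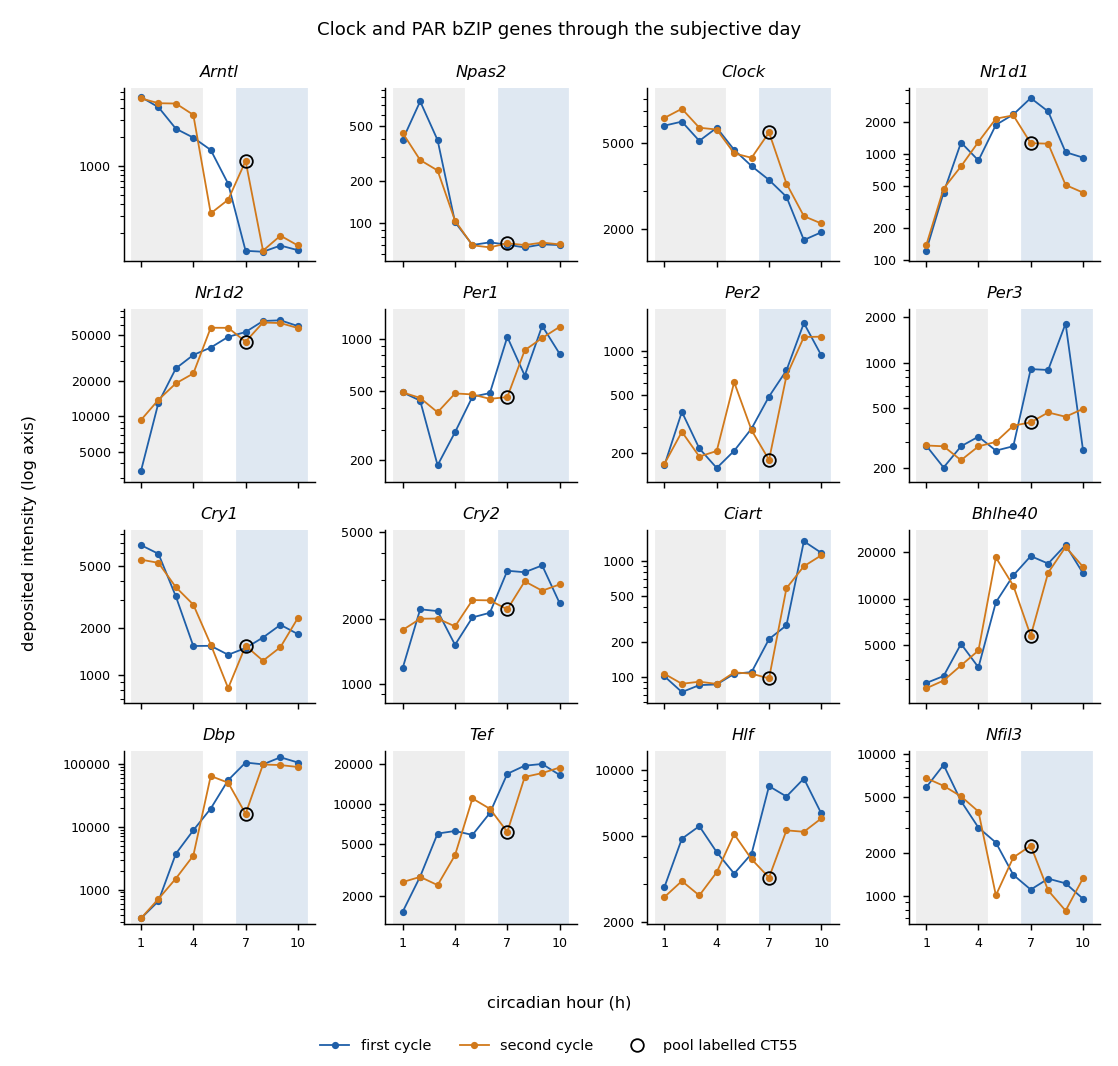
Deposited intensity (log axis) of 16 clock and PAR bZIP genes against circadian hour, with 1 line per cycle, grey shading for the early and blue shading for the late window, and a ring on the pool labelled CT55. Arntl falls and Dbp rises between the windows in both cycles, while Nr1d1 is highest between hours 5 and 7.

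Promoter stretches show the letters through which these factors are known to act. They come from RefSeq (GRCm38.p6), which lists 250 bases before to 50 after a start site for 88 of the 105 genes named here, and only bases before the start are printed. Capitals mark an E-box, CACGTG, the site of CLOCK and BMAL1, in Ciart (chr3:95882237-95882374, minus strand, 3 matches), Tef (chr15:81802516-81802581, plus strand) and Per1 (chr11:69098753-69098818, plus strand). They mark a D-box, TTATGTAA, the site shared by PAR bZIP factors and NFIL3, in Per3 (chr4:151044786-151044900, minus strand, 2 matches). They mark TAGGTCA, the site shared by ROR and REV-ERB receptors, on the opposite strand in Nfil3 (chr13:52981040-52981081, minus strand).
Ciart: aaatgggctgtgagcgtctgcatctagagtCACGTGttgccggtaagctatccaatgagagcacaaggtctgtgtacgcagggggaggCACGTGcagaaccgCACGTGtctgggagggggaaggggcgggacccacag
Tef: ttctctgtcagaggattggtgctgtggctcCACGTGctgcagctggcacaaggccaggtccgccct
Per1: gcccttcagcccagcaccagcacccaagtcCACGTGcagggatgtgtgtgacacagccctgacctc
Per3: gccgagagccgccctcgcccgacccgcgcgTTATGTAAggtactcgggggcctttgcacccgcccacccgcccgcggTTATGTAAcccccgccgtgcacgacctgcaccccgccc
Nfil3: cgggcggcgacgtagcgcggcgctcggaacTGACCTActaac

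The same letters stood before genes that did not rise. Among the named genes CACGTG was also found within the 250 bases before the start of Cry1, Atf6b, Mcfd2, Nr0b2, Ppp1r3c, Irs1, Selenos, Iars and Uros, which fell. It was found as well before Bhlhe41, which was dim and not called, and before Lpin2, Fkbp5 and Bnip3, which rose. The shares of genes with these letters on either strand of the listed window are a description. CACGTG stood in 74 of the 387 higher genes with a listed promoter (19.1%), in 63 of 473 lower genes (13.3%), in 10.2% of 14453 measured genes and in 7.15% of all 32851 listed windows. TTATGTAA stood in 3 higher genes (0.775%), 2 lower genes (0.423%) and 0.837% of measured genes. TAGGTCA stood in 5 higher genes (1.29%), 15 lower genes (3.17%) and 2.57% of measured genes, with 0.938% and 2.61% of all windows for TTATGTAA and TAGGTCA.

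Outside the clock lists, the largest rises were in genes of varied function. Usp2, a deubiquitinating enzyme, had early intensities from 149 to 839 with a median of 302 and late intensities from 587 at CT55 to 17369 with a median of 13131. Without CT55 the late pools began at 6614 and the groups did not overlap. The change was 4.84 ± 0.63 (adjusted p = 0.000819), and 5.40 ± 0.36 without CT55. Rgs16, which shortens G protein signaling, rose by 3.40 ± 0.31 (adjusted p = 0.000126), with all late pools (778 to 5530.2) above all early pools (189.5 to 329). Noct, a circadian phosphatase related to deadenylases, rose by 3.05 ± 0.61 (adjusted p = 0.0109) and its lowest late pool, CT55 at 421, lay within the early range of 294 to 730. Mfsd2a, a transporter of lysophospholipids, hardly varied among the early pools (482 to 569.8) and reached 5394 late, a change of 2.35 ± 0.40 (adjusted p = 0.00441). The kinases Wee1, a brake on entry into mitosis, and Plk3 rose by 2.24 ± 0.40 (adjusted p = 0.00595) and 2.37 ± 0.45 (adjusted p = 0.00799). Acot3, a peroxisomal acyl-CoA thioesterase, Gdap10 and the Krüppel-like factor Klf10 completed the 12 largest rises, with changes of 2.28, 2.26 and 2.18.

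The largest falls after Arntl included enzymes, a tubulin and a receptor kinase. Chka, the kinase that commits choline to phosphatidylcholine synthesis, fell from a median of 4141 (range 1761 to 8559) to 421 (range 175 to 910.1), without overlap, a change of -3.13 ± 0.36 (adjusted p = 0.000376). Pdk4, which shuts off pyruvate dehydrogenase in fasting, fell from a median of 4277 (range 2719.5 to 6214) to 412 (range 373 to 1819), a change of -3.06 ± 0.29 (adjusted p = 0.00013). Tubb2a, a beta-tubulin, fell from 66651 (range 40423 to 71362) to 6906 (range 4609 to 35269.9), a change of -2.90 ± 0.31 (adjusted p = 0.00027). In all 3 the highest late value was that of CT55, and without it the changes were -3.30, -3.32 and -3.18. Lrfn3, an adhesion protein, and Grk5, which desensitises G protein-coupled receptors, fell by 2.92 ± 0.27 (adjusted p = 0.00013) and 2.52 ± 0.24 (adjusted p = 0.00013), each without overlap. For Lrfn3, 7 of the 8 late values lay between 41.2 and 55.7, in the dim range, so the size of its fall rests on the bottom of the scale. Lgalsl (-2.24), Chic1 (-2.13) and the fatty acid elongase Elovl3 (-2.13 ± 0.27, adjusted p = 0.000662) fell without overlap as well.

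Chaperones of the endoplasmic reticulum (ER) were lower late in the subjective day. All 20 measured genes of the list had negative changes, with a median of -0.51 against 0.01 over all genes, and 10 were called lower against 3.15% of all genes, none higher. The same count was called without CT55. Creld2, an ER-resident disulfide isomerase, fell from a median of 31732 (range 16748 to 94383) to 7875 (range 5377 to 19739.9), a change of -2.02 ± 0.36 (adjusted p = 0.00575). Hspa5, the master Hsp70 chaperone of the ER lumen, fell from a median of 323064 (range 233211 to 496357) to 196131 (range 150113 to 252422), a change of -0.85 ± 0.15 (adjusted p = 0.00519). Only the CT55 pool overlapped with the early pools in both genes. Manf, a secreted ER stress-inducible protein, and Hspa13 changed by -1.32 ± 0.24 (adjusted p = 0.00582) and -0.95 ± 0.17 (adjusted p = 0.00622). For all 4 genes CT50 was the highest of the 8 early pools. The lectin chaperones Calr (-0.23, adjusted p = 0.228) and Canx (-0.05, adjusted p = 0.500) were not called.

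In ER-associated degradation 3 of 14 genes were called lower, against 3.15% of all genes, and none higher, with a list median of -0.09 and 4 changes above 0. Syvn1, the ubiquitin ligase of that route, peaked sharply at hour 2, with 32602 at CT26 and 33339 at CT50, and lay between 5009.9 and 7944 late, a change of -1.37 ± 0.31 (adjusted p = 0.0236). Edem1, which marks misfolded glycoproteins, changed by -0.69 ± 0.09 (adjusted p = 0.000705) through its brighter probe set and by -0.08 (not called) through the other. Among 20 genes of ER translocation and transport to the Golgi, 6 were called lower and 1 higher, against 3.15% and 2.55% of all genes. The coat components Sec23b and Sec24d changed by -0.98 ± 0.17 (adjusted p = 0.00441) and -0.59 ± 0.12 (adjusted p = 0.0132), Bet1 and the cargo receptor subunit Mcfd2 by -0.43 and -0.34, and Sec24a by 0.33. Of 14 factors of the unfolded protein response, 1 was called higher and 1 lower, against 2.55% and 3.15% of all genes. The higher was Trib3 (1.22 ± 0.30, adjusted p = 0.0351, and p = 0.0585 without CT55) and the lower Atf6b (-0.62 ± 0.16, adjusted p = 0.0407), while Xbp1 (0.05), Atf4 (-0.13) and Ddit3 (-0.17) were not called.

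In the cytosol 6 of 23 heat shock proteins and co-chaperones were called lower, against 3.15% of all genes, and none higher, with a list median of -0.10 and 6 changes above 0. Hsp90aa1 fell from a median of 78370.1 (range 59642 to 107081) to 39463 (range 32816 to 59906), a change of -0.92 ± 0.13 (adjusted p = 0.00121). The small heat shock protein Hspb1 (-0.87 ± 0.14, adjusted p = 0.00303) and the Hsp110 relative Hspa4l (-0.83 ± 0.09, adjusted p = 0.000366) fell without overlap, and the HSP90 activator Ahsa1 changed by -0.30. The heat-inducible Hsp70 gene Hspa1a (adjusted p = 0.996) and the constitutive Hspa8 (-0.02) were not called. Of 19 aminoacyl-tRNA synthetases 3 were called lower, against 3.15% of all genes, and none higher. Tars led them (-0.87 ± 0.09, adjusted p = 0.000165), from a median of 30269.7 (range 26005 to 32229) to 15979.8 (range 14094 to 24369.5). None of 30 proteasome subunits, of 26 respiratory chain and ATP synthase genes, of 16 genes of amino acid breakdown and the urea cycle or of 15 NRF2 and antioxidant genes was called, and of 16 ribosomal protein genes only Rpl4 was (-0.08, adjusted p = 0.0389).

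The ER stress element, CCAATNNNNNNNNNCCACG, is the site of ATF6 with the CCAAT factor NF-Y, and it is rare. It stood in 39 of all 32851 listed windows (0.119%) and in 20 of 14453 measured genes (0.138%), 8 of which were called lower (1.69% of the 473 lower genes with a listed promoter) and 0 of the 387 higher genes. The 8 were Creld2, Acnat2, Syvn1, Alg12, Hspa5, Acacb, Ero1b and Pdia6, and 7 of them were called lower without CT55, the exception being Acacb (adjusted p = 0.0637). Acnat2, Alg12, Acacb, Ero1b and Pdia6 are named here for the motif, after their values were seen. The other 12 changed by -0.30 (Dnajc3) to 0.02 (Adcy3). The stretches, with the element in capitals, are from Hspa5 (chr2:34771995-34772073, plus strand), Creld2 (chr15:88819490-88819568, plus strand, element on the opposite strand) and Syvn1 (chr19:6046502-6046575, plus strand).
Hspa5: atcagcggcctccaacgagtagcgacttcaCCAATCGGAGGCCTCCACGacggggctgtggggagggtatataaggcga
Creld2: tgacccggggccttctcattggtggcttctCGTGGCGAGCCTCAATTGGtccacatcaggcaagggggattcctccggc
Syvn1: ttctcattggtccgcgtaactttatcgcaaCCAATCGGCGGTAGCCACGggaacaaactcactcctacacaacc

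Carbohydrate genes changed in both directions. Of 15 genes of glycolysis and glycogen, 4 were called higher and 3 lower, against 2.55% and 3.15% of all genes. Without CT55 the calls were 4 higher and 1 lower. Gys2, the liver glycogen synthase, rose from a median of 11773 (range 10873 to 13306) to 29355 (range 16755 to 34078), without overlap, a change of 1.22 ± 0.11 (adjusted p = 0.000121). Ppp1r3c, a subunit that directs protein phosphatase 1 to glycogen, fell from a median of 31163 (range 18300.3 to 44948) to 9326 (range 5495 to 18167), also without overlap, a change of -1.71 ± 0.26 (adjusted p = 0.00184). Slc2a2, the glucose carrier GLUT2, and Ugp2, which makes UDP-glucose, changed by 0.56 ± 0.07 (adjusted p = 0.000662) and 0.40 ± 0.05 (adjusted p = 0.00103).

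The gluconeogenic enzymes did not change together. Of 9 measured genes 3 were called higher and 1 lower, against 2.55% and 3.15% of all genes. Pck1, the cytosolic step from oxaloacetate, rose from a median of 124137 (range 42472 to 216685) to 279675 (range 232253 to 340457), without overlap, a change of 1.28 ± 0.26 (adjusted p = 0.0128). G6pc, the final step that releases glucose, fell from a median of 53273 (range 37563 to 68573) to 27873 (range 19776 to 47296), a change of -0.87 ± 0.17 (adjusted p = 0.00851). The highest late value of G6pc was CT55, and without it the groups did not overlap. The factors Foxo1 (0.58 ± 0.13, adjusted p = 0.0179) and Foxo3 (0.69 ± 0.15, adjusted p = 0.0169) rose and the insulin receptor substrate Irs1 fell (-0.67 ± 0.11, adjusted p = 0.00411), while Irs2 was not called (-0.04).

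Of 22 genes of fatty acid oxidation 6 were called higher, against 2.55% of all genes, and Pdk4 alone was called lower, against 3.15%. The list had a median change of 0.18, with 18 changes above 0. Ppara, the receptor that controls this program, rose from a median of 19507 (range 12818 to 25450.5) to 41459 (range 26515 to 53446), without overlap, a change of 1.07 ± 0.14 (adjusted p = 0.001). Cpt1a, the gate of mitochondrial import, rose by 0.78 ± 0.11 (adjusted p = 0.00121), the pantetheinase Vnn1 by 0.71 ± 0.11 (adjusted p = 0.00232) and Angptl4, an inhibitor of lipoprotein lipase, by 1.62 (adjusted p = 0.00232). Of the enzymes of beta-oxidation, Acadl was called higher by a small step (0.19, adjusted p = 0.0482) and Ehhadh was not called (0.02, adjusted p = 0.812).

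In lipid synthesis 2 of 23 genes were called higher and 3 lower, against 2.55% and 3.15% of all genes. Both higher genes were lipins, phosphatidate phosphatases that also act in the nucleus: Lpin1 rose by 1.99 ± 0.38 (adjusted p = 0.0084) and Lpin2 by 1.26 ± 0.31 (adjusted p = 0.0382). Agpat2, the acyltransferase of the preceding step, fell from a median of 63990.4 (range 57459.6 to 68520.5) to 36108 (range 32913 to 43939.9), a change of -0.78 ± 0.06 (adjusted p = 2.59e-05) with no overlap. Fasn (-0.26) and Srebf1 (0.18) were not called. Of 21 cholesterol genes 3 were called lower and 1 higher, against 3.15% and 2.55% of all genes, and 18 changes were below 0. Insig2, which holds SREBP proteins in the ER, fell from a median of 83657 (range 66623 to 92387) to 27162 (range 16662 to 75029), a change of -1.49 ± 0.24 (adjusted p = 0.00268), and overlapped with the early pools only through CT55. Mvd fell by 0.99 ± 0.18 (adjusted p = 0.00613), Ebp by 0.18 ± 0.04 (adjusted p = 0.00874), and the sterol carrier Stard4 rose by 0.65 ± 0.14 (adjusted p = 0.0194).

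Of 15 bile acid and sterol transport genes, 5 were called higher and 2 lower, against 2.55% and 3.15% of all genes. Without CT55 the calls were 3 and 2. The transporters Abcg5 and Abcg8, which export sterols into bile as a pair, rose by 0.96 ± 0.15 (adjusted p = 0.00184) and 1.02 ± 0.13 (adjusted p = 0.000915), both without overlap. The bile acid receptor gene Nr1h4 rose by 0.29 ± 0.06 (adjusted p = 0.0107), and Nr0b2, the repressor it induces, fell by 0.99 ± 0.21 (adjusted p = 0.0174). Cyp7a1, the rate-limiting enzyme of bile acid synthesis, was not called (0.64, adjusted p = 0.491).

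**Figure D3:**
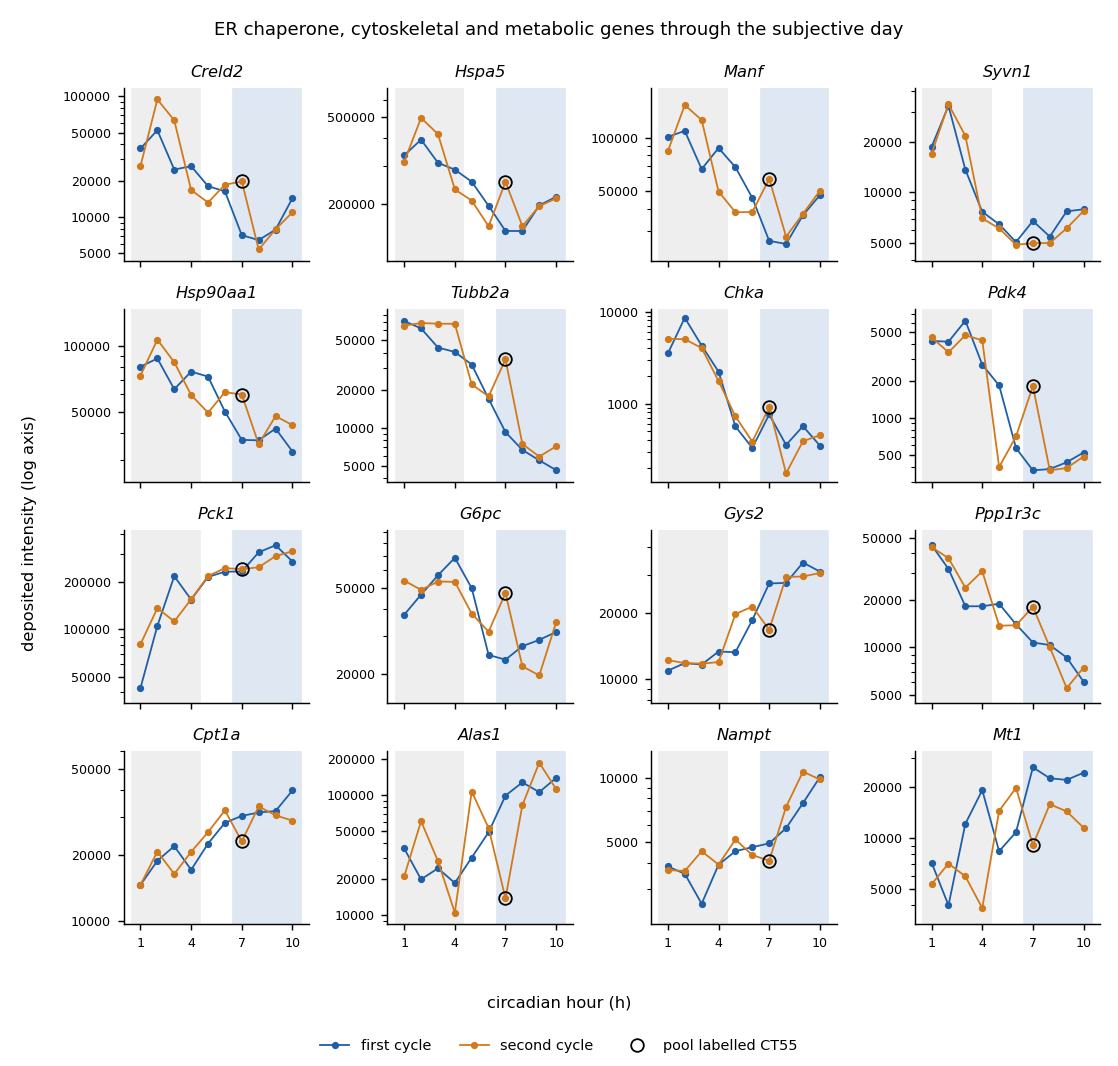
Deposited intensity (log axis) of 16 ER chaperone, cytoskeletal and metabolic genes against circadian hour, with 1 line per cycle, grey and blue shading for the early and late windows, and a ring on the pool labelled CT55. Syvn1 peaks at hour 2 in both cycles, and Gys2 and Ppp1r3c move in opposite directions without overlap between the windows.

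Smaller groups held single genes of large change. Alas1, the first enzyme of heme synthesis, changed by 1.89 ± 0.47 (adjusted p = 0.0388). Its early pools ran from 10449 to 60599 and its late pools from 13779 at CT55 to 186264, and without CT55 the change was 2.28 ± 0.31 (adjusted p = 0.00074) and the groups did not overlap. Fech, the last heme enzyme, rose by 0.25 ± 0.04 (adjusted p = 0.00461), Uros fell by 0.36 ± 0.04 (adjusted p = 0.000323), and the iron exporter Slc40a1 and the hepcidin co-receptor Hjv changed by 0.49 and -0.63. In the NAD salvage list 3 of 12 genes were called higher, against 2.55% of all genes: Nampt, its rate-limiting enzyme, by 0.97 ± 0.19 (adjusted p = 0.0113), and Sirt3 and Nadsyn1 by 0.34 and 0.29. Of 16 autophagy genes 4 were called higher, against 2.55% of all genes, and none lower, and 3 without CT55. The list median was 0.05 with 6 changes below 0. The calls were led by Gabarapl1 (0.51 ± 0.07, adjusted p = 0.00125) and Bnip3 (0.64 ± 0.09, adjusted p = 0.00162), with Ulk1 (0.97) and Map1lc3b (0.24, adjusted p = 0.0595 without CT55).

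Among 16 glucocorticoid receptor targets 4 were called higher and 1 lower, and Tat (-0.21), Sgk1 (-0.47) and Tsc22d3 (-0.37), which are also targets, were not called. The higher genes were Mt1 (1.30 ± 0.26, adjusted p = 0.0107), a metal-binding protein, the cochaperone Fkbp5 (0.85 ± 0.19, adjusted p = 0.0199), Nfkbia (0.37) and Per1. Ddit4 fell by 0.87 ± 0.22 (adjusted p = 0.0425, and 0.0539 without CT55). Of 17 immediate early genes only Junb was called (0.82 ± 0.19, adjusted p = 0.0225). Of 15 genes in the actin and SRF list, which also holds tubulins, 3 were called lower. They were the beta-tubulins Tubb2a and Tubb4b (-0.75 ± 0.11, adjusted p = 0.00124) and the actin Actb (-0.27 ± 0.06, adjusted p = 0.0228). Srf itself was not called (0.09, adjusted p = 0.569). Xenobiotic enzymes had Alas1 alone called of 23, and acute phase proteins Fgg alone of 19 (-0.13, adjusted p = 0.0211). Of 19 cell cycle genes Wee1 and Cdk2 (0.63 ± 0.12, adjusted p = 0.00752) were called higher, and of 22 ribosome biogenesis genes Ncl (0.35 ± 0.08, adjusted p = 0.0209). With 5.70% of all genes called in either direction, the lists here with 1 called gene lay near that share. The glucocorticoid receptor list (4 higher and 1 lower of 16) and the actin and SRF list (3 of 15) lay well above it. The cell cycle list (2 of 19) lay above it by less, and the 5.70% also covers dim genes. The lists were chosen with earlier results known and their shares were not tested, so these counts remain a description. The cold-inducible gene Cirbp was not called (0.43, adjusted p = 0.426). Other probe sets of the called genes named here numbered 119. Of these, 68 had the same call, 51 were not called, 23 of them dim, and 0 were called in the opposite direction.

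**Figure D4:**
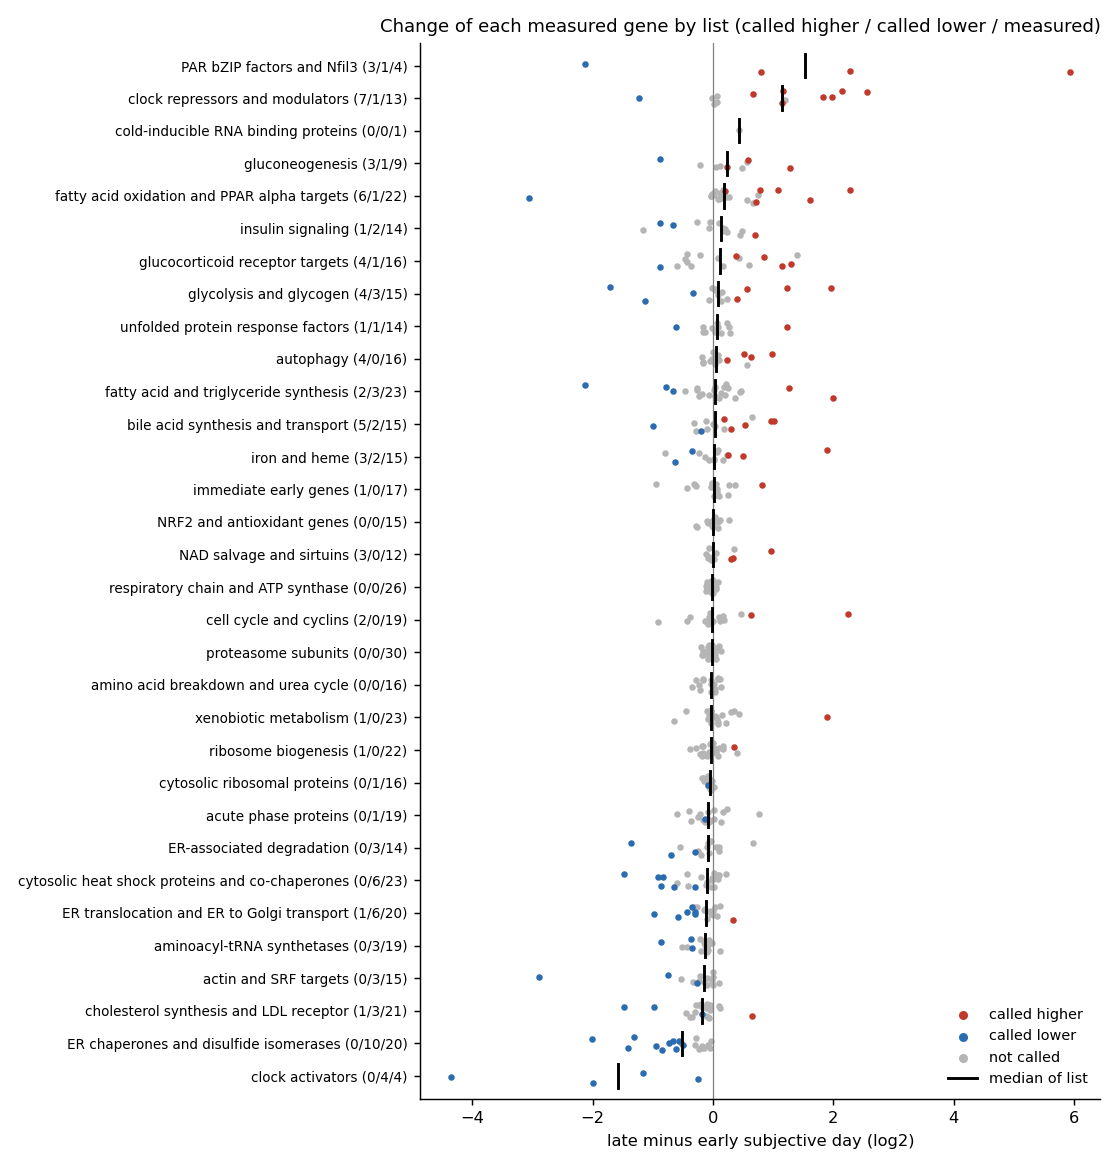
Change from early to late subjective day (log2, x axis) of each measured gene in 32 pathway lists, with called genes in red or blue, the others in grey and a black bar at the list median, and with the numbers called higher, called lower and measured beside each list. All 20 ER chaperones lie below 0 and 10 are called lower, and all 4 clock activators are called lower.

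The midday pools of hours 5 and 6 show how much of the change had been reached between the windows. Over the 190 genes that rose by more than 1.5-fold, the share of the change reached had a median of 26.8% at CT29 and 53.5% at CT30, and of 90.9% at CT53 and 73.8% at CT54. Over the 225 genes that fell by as much it was 28.2% and 58.3%, then 69.9% and 67.6%. The second-cycle shares rest on a late mean that includes CT55. In the first cycle, with both midday pools averaged, Cry1 (128%), Syvn1 (122%), Chka (105%) and Npas2 (98.2%) had already reached their late level, and the sterol carrier Stard4 had covered 94.4%. Nr1d2 (76.6%), Bhlhe40 (72.8%) and Dbp (71.4%) had covered most of the change and Arntl 37.3%. Mfsd2a (15.9%), Ciart (12.2%), Per2 (9.99%) and Per3 (0.817%) had barely left the early level, and Hlf lay on the far side of it (-22.1%). At CT53 and CT54 Ciart was again low (10.1% and 8.53%). The shares there were 42.8% and -0.831% for Mfsd2a, 93.5% and 28.0% for Per2, 22.3% and 69.3% for Per3, and 111% and 58.0% for Hlf. The order of genes given here is thus that of the first cycle.

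Agreement between cycles was read from calls made in 1 cycle alone, since calls over both favour a shared sign. In the first cycle alone 139 probe sets were called (0.308%) and in the second 59 (0.131%). Of the 139, 137 had the same sign in the second cycle, 111 of them at an unadjusted p under 0.05, and of the 59, 55 had the same sign in the first cycle, 35 of them at that level. At the adjusted threshold only 4 probe sets were called with the same sign in both cycles. Over all probe sets 70.7% had the same sign. By limma's interaction of change and cycle 0 probe sets were called, with 769 (1.71%) at an unadjusted p under 0.05 and a smallest adjusted p of 0.962. Nr1d1 (changes of 1.78 and 0.61 in the cycles) and Per3 (1.56 and 0.76) differed most in size among the clock genes named here.

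For the subjective night, hours 19 to 22 were compared with hours 13 to 16 in 16 other pools. Collection began late in a night, so within each cycle the late night pools (CT19 to CT22 and CT43 to CT46) were taken 18 h before the early night pools (CT37 to CT40 and CT61 to CT64). The contrast is thus one of circadian hours, not of a step within 1 night as by day. In it, collection order and the direction of the contrast cannot be told apart. The pools CT37 to CT40 and CT43 to CT46 belong to 1 night, but that step was not tested by itself. The 4 early night pools of the second cycle, CT61 to CT64, were shifted as a whole (75th percentiles of intensity from 797 to 839.5, against 952 to 1029 in the first cycle), so genes were called by night only where the deposited values and quantile normalized values both gave an adjusted p under 0.05. By this rule 1043 genes were higher late in the night (5.73%) and 1252 lower (6.88%). The day change exceeded the night change in 1111 genes (6.11%) and lay below it in 1069 (5.88%). Of the 464 genes higher late in the day, 138 were lower late in the night (29.7%) and 11 higher (2.37%), and the difference between day and night was called in 326. Of the 573 lower genes, 186 were higher late in the night (32.5%) and 42 lower (7.33%), and the difference was called in 393. The 464 and 573 genes were chosen by their day change, and the test of the difference uses the same day pools. A called difference in the direction of the day is thus favoured by the choice and adds no support.

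By night some of the largest day changes were reversed. On the deposited scale Dbp changed by -3.28 by night (adjusted p = 0.000164), Noct by -2.21, Arntl by 2.55 (adjusted p = 0.000351) and Elovl3 by 2.99. Other genes moved by day without a called move by night. Ppara changed by 0.12 by night (adjusted p = 0.333) and its difference from the day was called (adjusted p = 0.000538), and Bhlhe40 changed by -0.26 by night (adjusted p = 0.289, difference 9.44e-06). The same limit holds for the differences of single genes given here, since all were called by day. Genes of the secretory pathway went different ways. By the rule of both scalings, the day change lay below the night change in 10 of 20 ER chaperones and above it in 0. In ER-associated degradation it lay below in 4 of 14 genes and above in 2. In translocation and transport it lay below in 3 of 20 and above in 2. Over all genes the shares were 5.88% below and 6.11% above. Mcfd2 rose by night (0.39, adjusted p = 0.0039, difference 1.06e-06), and the difference was called in Edem1 (adjusted p = 4.17e-05). In the other direction, Hspa13 changed by -0.71 by night (adjusted p = 0.000381), Manf by -0.61 (adjusted p = 0.0141) and Sec23b by -0.49 (adjusted p = 0.0254), with no called difference from the day (adjusted p = 0.354, 0.0524 and 0.107). Creld2 and Hspa5 changed by -0.87 and -0.34 by night, called in neither case in both scalings. The autophagy genes Gabarapl1 (0.59, adjusted p = 0.0137) and Ulk1 (0.81, adjusted p = 0.0116) rose by night as by day, and Bnip3, of the same list, rose by day and fell by night (-0.66, adjusted p = 0.000484). Within the list of 20 ER chaperones 5 were lower and 4 higher late in the night.

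**Figure D5:**
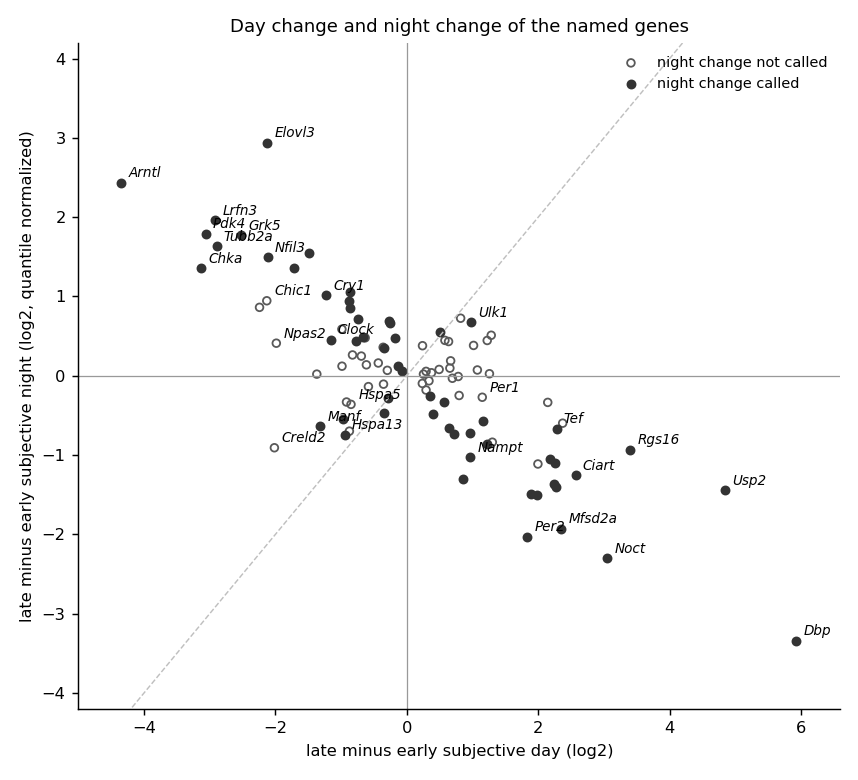
Change late in the subjective night (quantile normalized log2 values, y axis) against change late in the subjective day (log2, x axis) for the named genes called by day, with filled points where the night change was called after quantile normalization and a dashed line of equal change. Dbp and Arntl lie at opposite ends, each with opposite signs by day and night, and Manf and Hspa13 lie below 0 on both axes.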

How the data were processed

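Liver RNA of 48 hourly pools was read on Affymetrix Mouse Genome 430 2.0 arrays. The deposited intensity values were made by the authors with GCRMA in R, per the study's methods. The labels also name MAS5, without a version. Values above the 16-bit ceiling show that the deposited scale is not a plain scanner intensity, and how it arose is not given in the sources used here. Columns without a mapped sample numbered 0. A pool's group was taken from the circadian time in its title.

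Values were taken to log2 without an offset and tested with lmFit and eBayes in limma 3.58.1 (R 4.3.3), late minus early subjective day with cycle as covariate, over 45101 probe sets with Benjamini-Hochberg adjustment and a threshold of 0.05. The scripts were tested on simulated data. Python 3.11.15, numpy 2.4.6, pandas 2.3.3 and matplotlib 3.10.9 made the tables and plots. Probe sets were named through the platform annotation: 34958 had 1 symbol, 932 several and 9211 none, which left 18194 genes, with the brightest probe set by mean log2 value standing for a gene. The platform's symbols can be old.

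Named genes were the 12 largest rises and 12 largest falls among called genes with a mean intensity of at least 100 in the higher group, every measured member of the 3 clock lists, and up to 4 called members with the smallest p in each other pathway list. Further list members are given for contrast, and were chosen after their values were seen. The members and lists were chosen with earlier results of these data known, so lists are described by counts and medians only. The alternatives were another normalization, scale, offset, filter, covariate, prior, weighting and choice of pools. Precision is set by the 8 arrays a side.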

Additional observations from a re-analysis of the deposited data

Results flagged for a closer look

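In 27 of 315 groups of 4 or 8 pools, the highest or lowest pool lay far from the others by Dixon's criterion. About 1 in 20 groups meet it where values are independent and normally distributed. Linear intensities of pools along a time course are not such values, so that rate is no measure of chance here. Of these, 13 were the late pool labelled CT55. It was the lowest late pool in Dbp (16032), Usp2 (586.5), Tef (6127.4), Bhlhe40 (5751), Gys2 (16754.8), Alas1 (13778.9) and Fech (29944.8), and the highest in Arntl (1128.2), Pdk4 (1819.4), Lrfn3 (201.3), Tubb2a (35269.9), Grk5 (435.4) and Tars (24369.5). In all 13 it lay on the side of the early pools.

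The pool of CT25 was the lowest early pool in Gdap10 (261.3), Trib3 (238.9) and Sirt3 (12391.4) and the highest in Csnk1e (165.1). Other early pools apart from the rest were CT27 in Mfsd2a (569.8) and Nampt (2561.5), CT26 in Fbxl21 (58.9) and CT28 in Tars (26004.8). Among the late pools, CT32 was high in Got1 (60514.3) and CT33 in Ncl (28838.6). Of the 4 midday pools, CT29 was low in Wee1 (709.1) and Rora (9161.4) and high in Ppp1r3c (18977.2), and CT53 was high in Got1 (63314.2).

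The change over the day differed from the change over the night by limma's test of the difference, in both scalings, in 1111 genes above 0 and 1069 below 0.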

How the results depend on the processing

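The number of called probe sets (1736) fell to 462 (154 higher, 308 lower) with adjacent pools averaged, to 139 (61 and 78) in the first cycle alone and to 59 (37 and 22) in the second. These settings use fewer values. So does the setting of inner hours only, which gave 1356 calls (448 higher and 908 lower, against 811 and 925). The reason for the drops was not tested. Leaving out each pool gave 1264 to 1999 calls, 588 to 951 higher and 675 to 1048 lower, highest without CT55. Genes without overlap ranged from 86 to 223 above and from 132 to 274 below, the larger moves being without CT55 (223 and 274), CT27 (137 above) and CT28 (196 below). The cycle interaction ranged from 0 to 6 calls, 0 to 6 above 0 and 0 to 2 below 0.

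Night calls as deposited were 18305, and were 4960 (2199 higher, 2761 lower) after quantile normalization and 702 (462 and 240) in the first cycle alone. Calls of day minus night were 16191 as deposited (12658 above 0, 3533 below), and 4368 (2352 and 2016) and 1290 (514 and 776) under the same settings. The cause was not tested.

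Of 100 called named genes, 96 kept their call after quantile normalization, 82 with the spread of all 48 pools, 70 with inner hours, 36 with adjacent pools averaged, 19 and 3 in single cycles, and 84 to 96 without 1 pool. No called gene changed sign. Of the uncalled, Csnk1d was -0.013 in the second cycle alone, and Fbxl21 ranged from -0.0314 to 0.00146 without 1 pool. Settings on CT55, single-pool positions, overlap and midday cycles were chosen after seeing the data. No paired analysis was run, because each pool was taken from other mice. Adding the hour within the window as a linear covariate gave 1750 calls, 1627 of them shared. Hours sampled once and dim probe sets limit the precision.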
